A study of Mus musculus with 9 samples.

Results

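Claudins are the membrane proteins that set what passes between the cells of an epithelium, and 10 of them that are known from the nephron were followed through obstruction and release of the ureter: Cldn1, Cldn2, Cldn3, Cldn4, Cldn7, Cldn8, Cldn10, Cldn11, Cldn12 and Cldn19. They were chosen by name, with earlier results of these data known. Their probes were found through the RefSeq accession that the array design gives each probe, which matched all 10 genes with 12 probes, 2 each for Cldn1 and Cldn19 and 1 for every other gene. On the array 24 claudin genes had a probe, and 17742 genes of any kind entered the tests.

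Whole left kidneys of 9 male mice aged 10 weeks were measured, each on 1 single-colour Agilent array. All mice, the controls included, carried the genotype ISAM (Epo–/–::3.3K-Epo3'-Tg458) on a mixed strain background, in which the mouse's own erythropoietin gene is deleted and an Epo transgene is carried, so no kidney with an intact Epo gene was compared. In 3 mice a vascular clip had closed the left ureter for 2 days (clip), in 3 mice the clip had been taken off again and 12 days had followed (release, ClipR-14 in the labels), and the control arm of 3 joined 2 sham-treated mice with 1 untreated mouse. When the control kidneys were taken is not stated. Arrays of every arm were present on each of 3 slides, and the slide with the untreated mouse was scanned on another date. The 75th percentile of the signal was 320.4 to 439.2 over the arrays, 52.03% to 57.51% of probes were well above background, and neither of the 2 Epo probes was well above background on any array. The number of arrays limits the precision, and the p values measure the spread between these kidneys.

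Tight junctions seal the gap between neighbouring epithelial cells, and the claudins in them decide which ions may cross. Some claudins form pores, such as claudin-2 for cations in the proximal tubule, and others mainly seal, such as claudin-1. Each nephron segment has its own set, from the leaky proximal tubule to the tight collecting duct, and in the thick ascending limb claudin-16 and claudin-19 carry calcium and magnesium back to the blood. In total RNA of a whole kidney, fewer cells of a segment and less RNA per cell cannot be told apart.

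The stretches before the start sites of most of the claudins that changed during obstruction are shown because members rose or fell together. They are the 250 bases before each start in RefSeq's table for build GRCm38.p6, written 5′ to 3′ on the gene's strand, which held 9 of the 10 members with 14 windows in all (Cldn8 has no entry). Capitals mark matches, on either strand, of 3 short motifs that do not overlap here: CACCTG, an E-box that Snail-type repressors bind, the GC box GGGCGG, and TATAAA. Cldn1, Cldn3, Cldn4 and Cldn7 are the genes that rose, and Cldn2 and Cldn10 are among those that fell. The windows of Cldn12, which fell too, are not printed but are counted below.
Cldn1, chr16:26371840-26372089, minus strand: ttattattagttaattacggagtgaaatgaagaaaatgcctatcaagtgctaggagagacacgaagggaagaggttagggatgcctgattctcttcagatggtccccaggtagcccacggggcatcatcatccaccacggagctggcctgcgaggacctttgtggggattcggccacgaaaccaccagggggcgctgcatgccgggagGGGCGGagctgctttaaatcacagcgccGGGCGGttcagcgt
Cldn3, chr5:134985964-134986213, plus strand: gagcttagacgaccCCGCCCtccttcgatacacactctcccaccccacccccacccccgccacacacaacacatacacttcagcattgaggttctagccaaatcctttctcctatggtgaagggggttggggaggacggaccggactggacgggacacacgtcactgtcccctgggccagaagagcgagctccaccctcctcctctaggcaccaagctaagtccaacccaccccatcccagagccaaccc
Cldn4, chr5:134946935-134947184, minus strand: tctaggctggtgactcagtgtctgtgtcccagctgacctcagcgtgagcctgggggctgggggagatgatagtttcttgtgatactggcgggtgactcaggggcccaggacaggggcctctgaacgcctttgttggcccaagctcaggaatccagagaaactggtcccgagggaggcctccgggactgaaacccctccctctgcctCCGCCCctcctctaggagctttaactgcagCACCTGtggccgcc
Cldn7 first start, chr11:69964529-69964778, plus strand: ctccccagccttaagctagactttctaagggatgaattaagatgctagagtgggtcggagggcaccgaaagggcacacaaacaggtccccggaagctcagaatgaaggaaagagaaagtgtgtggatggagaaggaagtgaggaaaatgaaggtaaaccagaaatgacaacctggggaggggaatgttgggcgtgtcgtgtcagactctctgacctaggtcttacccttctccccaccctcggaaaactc
Cldn7 second start, chr11:69965171-69965420, plus strand: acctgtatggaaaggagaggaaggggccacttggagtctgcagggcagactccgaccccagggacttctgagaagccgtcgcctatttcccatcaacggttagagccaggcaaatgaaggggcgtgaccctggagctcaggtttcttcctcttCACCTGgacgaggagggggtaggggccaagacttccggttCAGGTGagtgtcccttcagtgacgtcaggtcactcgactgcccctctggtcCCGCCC
Cldn2, chrX:139800558-139800807, plus strand: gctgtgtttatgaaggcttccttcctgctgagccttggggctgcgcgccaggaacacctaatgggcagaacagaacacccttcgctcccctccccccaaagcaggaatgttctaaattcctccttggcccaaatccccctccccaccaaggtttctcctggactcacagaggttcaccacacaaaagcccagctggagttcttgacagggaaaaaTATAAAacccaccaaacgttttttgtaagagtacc
Cldn10 first start, chr14:118787621-118787870, plus strand: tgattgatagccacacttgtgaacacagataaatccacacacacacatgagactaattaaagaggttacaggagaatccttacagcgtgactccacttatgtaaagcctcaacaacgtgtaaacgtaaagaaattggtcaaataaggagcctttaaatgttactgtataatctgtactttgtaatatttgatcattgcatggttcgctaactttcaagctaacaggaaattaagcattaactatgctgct
Cldn10 second start, chr14:118854700-118854949, plus strand: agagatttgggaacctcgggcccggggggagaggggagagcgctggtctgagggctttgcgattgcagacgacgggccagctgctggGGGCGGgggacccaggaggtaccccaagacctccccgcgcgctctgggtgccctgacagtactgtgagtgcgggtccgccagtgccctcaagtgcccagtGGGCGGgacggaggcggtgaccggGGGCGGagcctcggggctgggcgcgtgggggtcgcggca
CACCTG was found before Cldn4, beginning 14 bases before the start, and before the second start of Cldn7, at 97 and 57 bases; this was 2 of the 14 member windows, and 17.2% of all 32851 windows held it. GGGCGG was found in 9 of the 14 windows, against 32.7% of all windows, in genes that rose (Cldn1, Cldn3, Cldn4 and Cldn7), that fell (Cldn10 and Cldn12) and that were not called (Cldn19). The 9 windows were 55.6% to 72.4% G and C, against a median of 52.4% over all windows. Base composition was not accounted for. Windows of the close starts of Cldn12 and of Cldn19 overlap each other, so that the same sites are counted in more than 1 window. TATAAA was found before Cldn2 alone, beginning 35 bases before the start, against 12.4% of all windows. Cldn3 and Cldn4 are direct neighbours on chromosome 5 with no protein-coding gene between them, and so are Cldn1 and Cldn16 on chromosome 16. These matches are descriptions of the sequence, and no binding was measured.

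Clip and control kidneys were set against each other to see how the claudins stood after 2 days of obstruction. In clip kidneys 4 claudins rose, Cldn1 5.37-fold, Cldn4 4.37-fold, Cldn3 2.24-fold and Cldn7 2.13-fold. The pore-forming Cldn10 and Cldn2 fell 2.44-fold and 1.41-fold, and Cldn12 fell 1.34-fold. Cldn8, Cldn11 and Cldn19 did not pass the test. Thus 7 of the 10 members were called in limma fits with Benjamini-Hochberg (BH) adjustment over all genes at 0.05, where 48.9% of all genes were called; 4 were higher, against 21.4% of all genes, and 3 lower, against 27.5%. The clip and control kidneys did not overlap for these same 7 genes, against 58.6% of all genes. The median change of the 10 was 0.59 on the log2 scale, beside -0.0907 for all genes. This median falls between Cldn19 at 0.30 and Cldn11 at 0.89, neither of them called and Cldn11 near the limit of detection. Levels below are log2 of the signal over the array's 75th percentile, so that 0 is that percentile, and they are compared within a probe only.

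**Figure D1:**
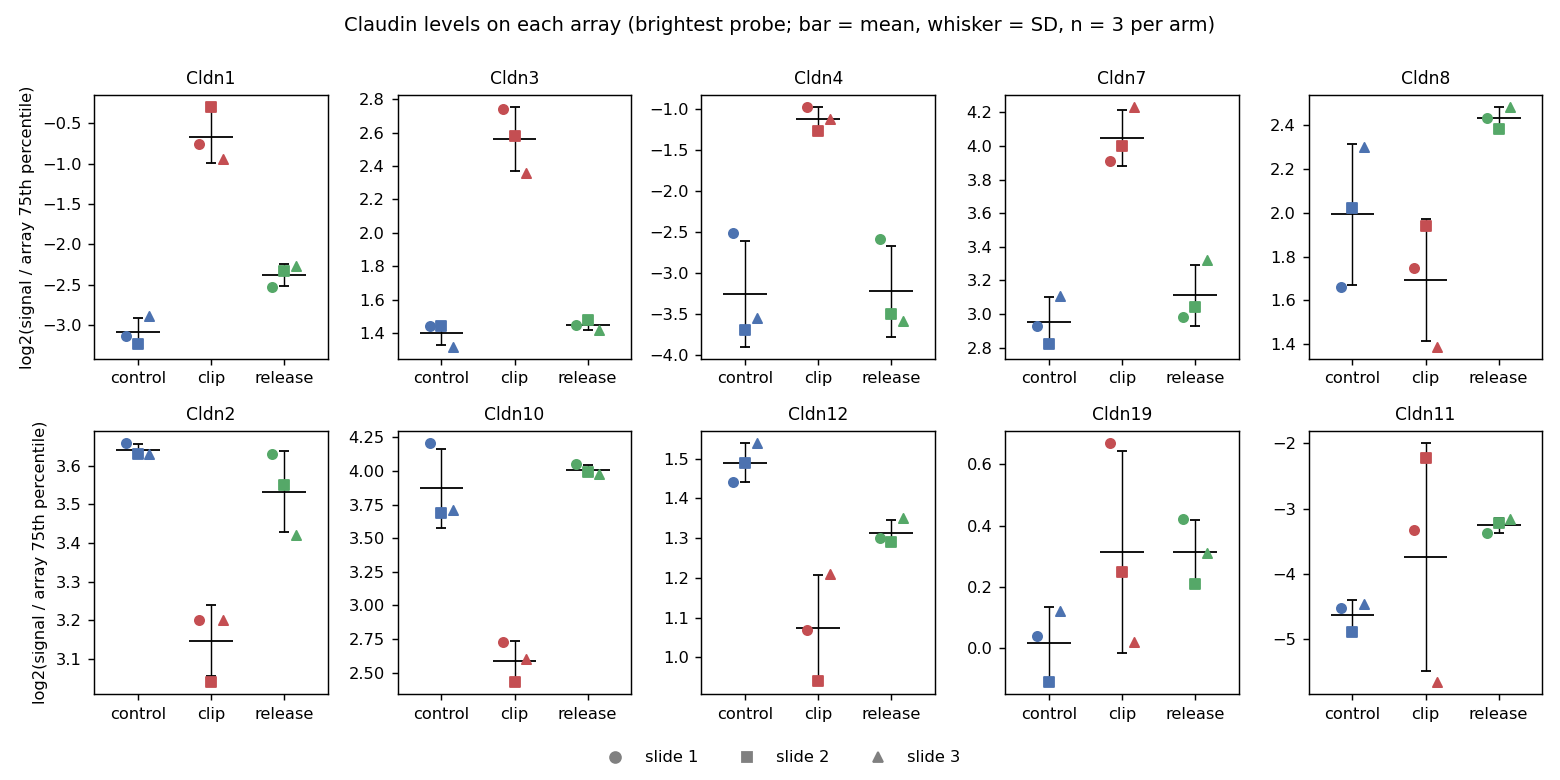
Level of each of the 10 claudins on every array, as log2 of signal over the array's 75th percentile, in control, clip and release kidneys; symbols mark the 3 slides, the bar is the mean and the whisker the SD of 3 kidneys. The clip kidneys stand clear above control for Cldn1, Cldn3, Cldn4 and Cldn7 and clear below it for Cldn2, Cldn10 and Cldn12, while Cldn11 in clip 3 lies at -5.66, far from clip 1 and clip 2.

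Cldn1, which lines Bowman's capsule and is a main sealing claudin of skin, stood at -3.13, -3.24 and -2.89 in sham 1, sham 2 and untreated kidneys and at -0.75, -0.30 and -0.94 in clip 1, clip 2 and clip 3. Every clip kidney was far above every control kidney. The change was 2.43 ± 0.17 (standard error of the fit; 3 kidneys in each arm; limma, BH-adjusted p = 1.54e-05), with differences of 1.96 to 2.93 within the 3 slides, and 1.42 with normexp background correction (adjusted p = 0.000142). The dimmer of its probes was not well above background in any control kidney and was so in every clip kidney, and gave a rise of at least 4.97-fold (adjusted p = 0.00011).

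Cldn4, a collecting duct claudin that pairs with claudin-8 in a paracellular chloride path, stood at -2.51, -3.69 and -3.55 in the control kidneys and at -0.98, -1.27 and -1.12 in the clip kidneys. The arms did not overlap, although sham 1 lay more than 1 log2 unit above the other two controls. The change was 2.13 ± 0.35 (limma, BH-adjusted p = 0.00126; 1.53 to 2.43 within slides), and 1.26 with normexp (adjusted p = 0.00135). On slide 1 the level was the highest of its arm in all 3 arms.

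Cldn3, a sealing claudin of the thick limb and collecting duct, moved with little scatter, from 1.44, 1.44 and 1.32 in control to 2.74, 2.58 and 2.36 in clip kidneys. Every clip kidney lay above every control kidney, by 1.17 ± 0.11 on average (limma, BH-adjusted p = 5.9e-05; 1.04 to 1.31 within slides). Cldn7, found along the distal nephron at both the junction and the lateral membrane, went from 2.93, 2.82 and 3.11 to 3.91, 4.0 and 4.23. Again no clip kidney reached down to the controls, and the change was 1.09 ± 0.14 (adjusted p = 0.000259; 0.97 to 1.19 within slides).

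Cldn10 showed the largest fall of the 10. This gene makes an anion pore in the proximal tubule from one of its starts and a cation pore in the thick limb from another, and its only probe does not say which of the transcripts was measured. Levels were 4.21, 3.69 and 3.71 in control and 2.73, 2.43 and 2.6 in clip kidneys, a change of -1.28 ± 0.15 (limma, BH-adjusted p = 0.000194; -1.48 to -1.11 within slides). Sham 1 lay above the other controls here too, and the arms did not overlap.

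Cldn2, the cation and water pore of the proximal tubule, was nearly the same in the 3 control kidneys at 3.66, 3.63 and 3.63 and lower in the clip kidneys at 3.20, 3.04 and 3.20. The fall was larger than the spread between kidneys, at -0.49 ± 0.09 (limma, BH-adjusted p = 0.00228; -0.58 to -0.43 within slides). Quantile normalization gave -0.26 (adjusted p = 0.0305). Cldn12, a widely made claudin tied to calcium permeability, went from 1.44, 1.49 and 1.54 to 1.07, 0.94 and 1.21, with every clip kidney below every control (-0.42 ± 0.09, adjusted p = 0.00575; -0.55 to -0.34 within slides).

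Cldn8, the distal partner of claudin-4, did not follow it. Its levels were 1.66, 2.02 and 2.30 in control and 1.75, 1.94 and 1.39 in clip kidneys, and the arms overlapped. The difference was -0.30 ± 0.19 (limma, BH-adjusted p = 0.209), with a 95% interval of -0.73 to 0.12; within slides it was 0.09, -0.08 and -0.92. The lower bound of this interval would still be a fall of more than 1.5-fold.

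The answer for Cldn19 depended on the probe. This thick limb claudin is mutated in a form of inherited magnesium wasting. Its brighter probe, designed for NM_001038590, gave 0.04, -0.11 and 0.12 in control and 0.67, 0.25 and 0.02 in clip kidneys (0.30 ± 0.16; limma, BH-adjusted p = 0.164). The probe for NM_153105 gave -1.50, -1.71 and -1.40 in control and -0.17, -0.70 and -0.99 in clip kidneys, with no overlap (0.92 ± 0.20, adjusted p = 0.00485). Clip 3 was the lowest clip kidney by both probes, and without it the brighter probe passed too (0.44, adjusted p = 0.0467), whereas without clip 1 the difference was 0.12 (adjusted p = 0.489). It also passed with the replicate number as a block (0.41, adjusted p = 0.037), and so did the mean of both probes (0.61, adjusted p = 0.0207), but not with slide as a block (adjusted p = 0.115). Over all alternatives for the gene the adjusted p ran from 0.00485 to 0.489.

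**Figure D2:**
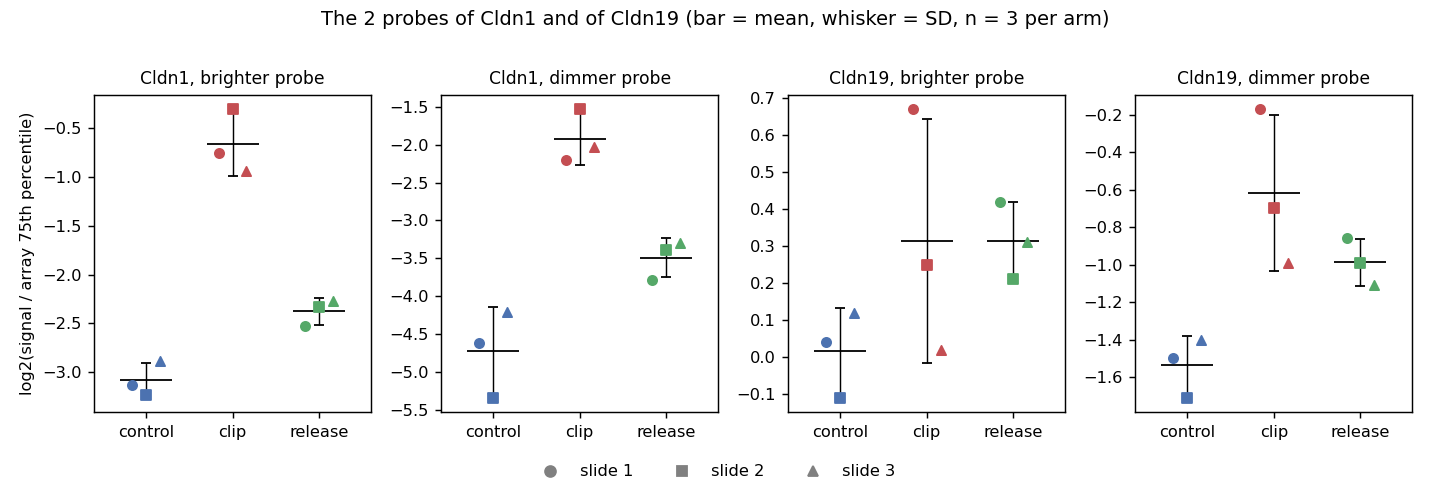
Levels of the 2 probes of Cldn1 and of the 2 probes of Cldn19 on every array, as log2 of signal over the array's 75th percentile; bars are means and whiskers SD of 3 kidneys. Both Cldn1 probes are higher in every clip kidney than in any control kidney, whereas for Cldn19 the dimmer probe separates the arms and the brighter one does not, clip 3 (0.02) lying among the controls.

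Cldn11, best known from myelin and the Sertoli cell barrier, was near the limit of detection. No control kidney, clip 1 and clip 2 among the clip kidneys, and all 3 release kidneys were well above background, and the gene entered the tests only through those arrays. Levels were -4.53, -4.89 and -4.47 in control kidneys, -3.33, -2.23 and -5.66 in clip kidneys, and -3.38, -3.22 and -3.16 in release kidneys. The control values are not measured levels. For release kidneys only a bound on the ratio of the arm means can thus be given, at least 2.04-fold above control (limma, BH-adjusted p = 0.302). The 95% interval of the fitted difference was -0.24 to 3, with 0 inside it. For clip kidneys no bound is given, since clip 3 was not well above background either and lay below every control (adjusted p = 0.33). Neither difference passed. The fitted clip difference of 0.89 ± 0.71 hung on single arrays, being 1.85 without clip 3 (adjusted p = 0.0021) and 0.14 without clip 2 (adjusted p = 0.87). For release against control the limma adjusted p was 0.0581 without clip 3 and 0.063 with only the 2 arms in the fit. Both p values rest on the same control values, which are not measured levels.

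The second comparison asked how far the claudins were from control 12 days after the clip came off. In limma fits none of the 10 passed (BH-adjusted; 2 at an unadjusted p under 0.05), where 1.83% of all genes were called (1.46% higher and 0.372% lower), and 1 to 4 members reached an unadjusted p under 0.05 in any alternative. Release and control kidneys were fully separate for 6 of the 10, against 27.2% of all genes; one of the 6, Cldn2, is separate only beyond the decimals printed here, and another, Cldn11, was not well above background in control. The median difference of the 10 was 0.15, beside -0.0132 for all genes. Over all genes the number of calls moved from 325 to between 0 and 1163 with the processing.

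In the main fit Cldn1 was the member nearest to the threshold, with -2.53, -2.33 and -2.27 in release kidneys, each above every control. It was still 1.64-fold higher than in control (0.71 ± 0.17; limma, BH-adjusted p = 0.0723, and 0.0578 to 0.813 over the alternatives). Its dimmer probe gave the same direction, 1.67-fold with controls set no lower than the detection limit (adjusted p = 0.07). For this probe only 2 of 3 release kidneys were well above background. With normexp the brighter probe gave 0.27. Cldn8 stood at 2.43, 2.38 and 2.48 in release kidneys, above every control, without passing (0.44 ± 0.19, adjusted p = 0.223). Cldn19 was 0.30 ± 0.16 above control (adjusted p = 0.326) by the brighter probe and 0.55 ± 0.20 (adjusted p = 0.164) by the dimmer one.

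The other risers were close to control after release. Cldn3, at 1.45, 1.48 and 1.42, differed from control by 0.05 ± 0.11 with a 95% interval of -0.20 to 0.30. Cldn7, at 2.98, 3.04 and 3.32, differed by 0.16 ± 0.14 (-0.15 to 0.47). Cldn4 lay at -2.58, -3.50 and -3.58, a difference of 0.03 ± 0.35, but its interval of -0.78 to 0.84 leaves room for a sizeable one. Among the fallers, Cldn10 (4.05, 3.99 and 3.98) differed from control by 0.14 ± 0.15 (-0.21 to 0.48) and Cldn2 (3.63, 3.55 and 3.42) by -0.11 ± 0.09 (-0.32 to 0.10). Cldn12 stayed a little lower in every release kidney, at 1.30, 1.29 and 1.35 (-0.18 ± 0.09, -0.39 to 0.03).

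**Figure D3:**
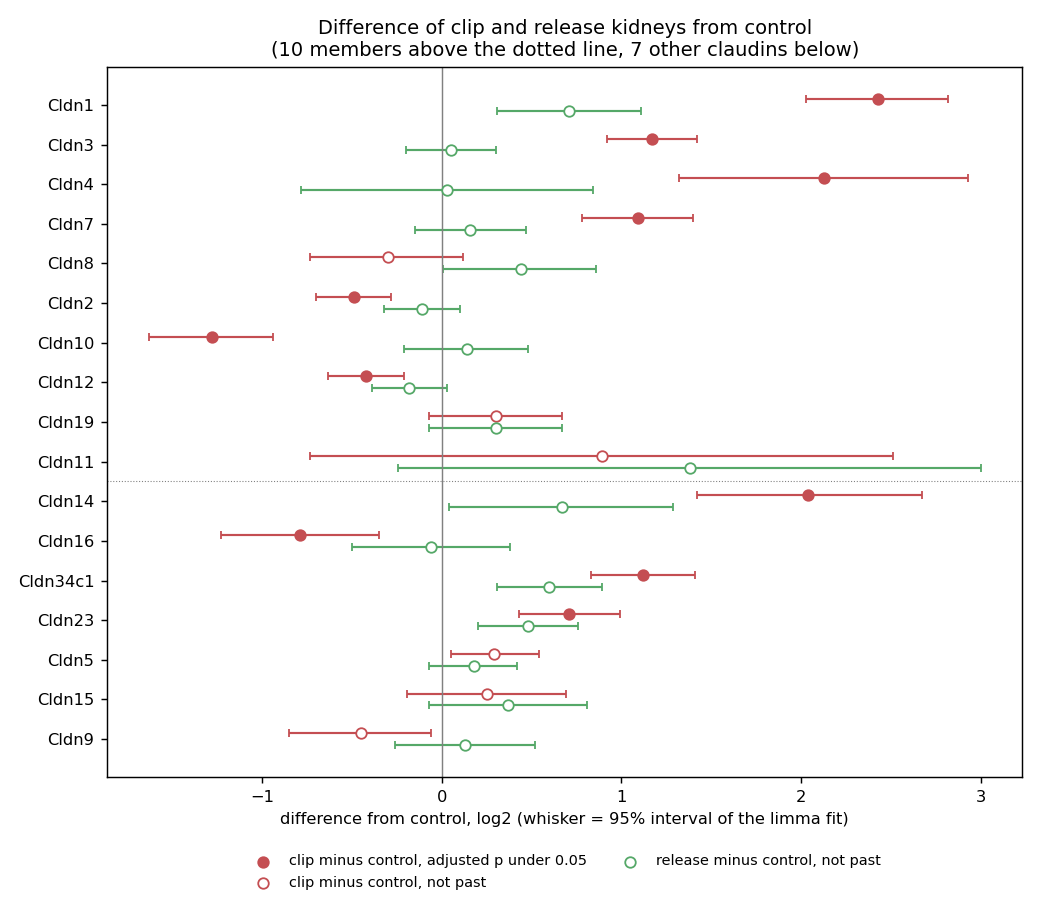
Difference of clip and of release kidneys from control on the log2 scale for the 10 members and, below the dotted line, 7 other claudins; whiskers are 95% intervals of the limma fit and filled points have an adjusted p under 0.05. Clip differences run from -1.28 for Cldn10 to 2.43 for Cldn1, and no release difference is past the threshold.

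Set directly against the clip kidneys, with which the first comparison shares its arrays, release kidneys had less Cldn4 (-2.09 ± 0.35; limma, BH-adjusted p = 0.00184), Cldn1 (-1.72 ± 0.17, adjusted p = 0.000129), Cldn3 (-1.11 ± 0.11, adjusted p = 0.00011) and Cldn7 (-0.93 ± 0.14, adjusted p = 0.000843). They had more Cldn10 (1.42 ± 0.15, adjusted p = 0.000174), Cldn8 (0.74 ± 0.19, adjusted p = 0.013) and Cldn2 (0.38 ± 0.09, adjusted p = 0.00987). For Cldn8 every release kidney was above every clip kidney, the only comparison in which it was called. These 7 of 10 stand beside 41% of all genes called (23.5% higher and 17.4% lower), and release and clip kidneys were fully separate for 8 of 10, against 54.8% of all genes. With normexp the difference of Cldn4 was -1.27 (adjusted p = 0.00184). Cldn12 did not pass (0.24 ± 0.09, adjusted p = 0.0692; 0.0317 with slide as a block and 0.0369 without clip 3).

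Of the other claudins, 7 passed the filter on dim probes. Cldn14, a thick limb claudin that blocks the claudin-16 and claudin-19 path, rose 4.13-fold in clip kidneys, from -4.33, -3.71 and -3.95 to -2.21, -1.40 and -2.24 (2.04 ± 0.27; limma, BH-adjusted p = 0.000382). It was well above background in 2 of the 3 control kidneys, and sham 1 was not one of them. Cldn16 itself fell 1.73-fold, from -0.33, -0.17 and 0.23 to -0.65, -0.99 and -1.0 (-0.79 ± 0.19, adjusted p = 0.00926). For both genes no clip kidney overlapped the controls, while in release kidneys neither passed against control. Cldn14 was then still above every control kidney (-3.19, -3.09 and -3.70; 0.67 ± 0.27, adjusted p = 0.208), though release 3 at -3.70 was barely above sham 2 at -3.71. Cldn16 overlapped with control (0.10, -0.44 and -0.12; -0.06 ± 0.19, adjusted p = 0.878). Against clip kidneys, release kidneys had less Cldn14 (-1.38 ± 0.27, adjusted p = 0.00424) and Cldn34c1 (-0.52 ± 0.13, adjusted p = 0.0109) and more Cldn16 (0.73 ± 0.19, adjusted p = 0.0164). Cldn34c1 rose 2.18-fold (1.12 ± 0.13, adjusted p = 0.000149). Cldn23 was well above background in all 3 clip kidneys, in 1 release kidney and in no control kidney. It thus entered the tests through the clip arm, where it is high. Only a bound can be given for its rise, at least 1.55-fold (limma, BH-adjusted p = 0.00151), and that test rests on control values that are not measured levels. In release kidneys Cldn34c1 was 0.60 ± 0.13 above control (adjusted p = 0.0544, and 0.0498 with slide as a block). Cldn5 of endothelium (0.29 ± 0.11, adjusted p = 0.0507; 0.0339 with slide as a block), Cldn15 (0.25 ± 0.19, adjusted p = 0.317) and Cldn9 (-0.45 ± 0.17, adjusted p = 0.0562) did not pass. Cldn9 was higher in release than in clip kidneys (0.58 ± 0.17, adjusted p = 0.0253). Cldn6, an embryonic claudin, was left out of the tests because only clip 1 and clip 3 (-4.13 and -3.73) were well above background.

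Claudins work with other proteins of the junction, for which lists were drawn up by function. Among 13 other proteins of the strands 4 rose and 2 fell in clip kidneys, with a median of 0.04. Of all genes 21.4% were called higher there and 27.5% lower. Jam2, a junctional adhesion molecule, rose 3.03-fold (1.60 ± 0.13; limma, BH-adjusted p = 2.46e-05) and Lsr, which builds the corners where 3 cells meet, rose 1.98-fold (0.99 ± 0.10, adjusted p = 7.02e-05). Its relatives Ildr2 (-0.58 ± 0.13, adjusted p = 0.00652) and Ildr1 (-0.47 ± 0.13, adjusted p = 0.0194) fell. Ocln, which encodes occludin, differed by -0.11 ± 0.14 (adjusted p = 0.564). None of the 13 was called in release against control, or 1 higher (Esam) and 1 lower with slide as a block. Against clip kidneys 2 were higher after release, most so Ildr1 (0.88 ± 0.13) and Esam (0.55 ± 0.16), and 5 lower, most so Jam2 (-1.13 ± 0.13) and Lsr (-0.94 ± 0.10). In that comparison 23.5% of all genes were called higher and 17.4% lower.

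Of 25 plaque and polarity proteins, which tie claudins to the cytoskeleton and set the apical side, 5 rose and 5 fell in clip kidneys (median 0.07). These counts stand beside 21.4% of all genes higher and 27.5% lower. Prkcz (-1.15 ± 0.13; limma, BH-adjusted p = 0.000144) and Pard3 (-1.12 ± 0.13, adjusted p = 0.000214), partners in the PAR polarity complex, fell most. Among those that rose was Ybx3 (0.92 ± 0.23, adjusted p = 0.0109). Tjp1, the scaffold ZO-1, did not pass (0.43 ± 0.21, adjusted p = 0.125) but did with slide as a block (adjusted p = 0.00401). With that block 8 of the 25 rose and 7 fell, beside 4458 and 5879 of all 17742 genes. None of the 25 was called in release against control. Against clip kidneys 5 were higher after release, Prkcz (0.89 ± 0.13) and Pard3 (0.87 ± 0.13) most, and 1 lower, Amot (-0.57 ± 0.09). With the slide block 4 were lower, beside 3772 of all 17742 genes. In the main fit of that comparison 23.5% of all genes were called higher and 17.4% lower.

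**Figure D4:**
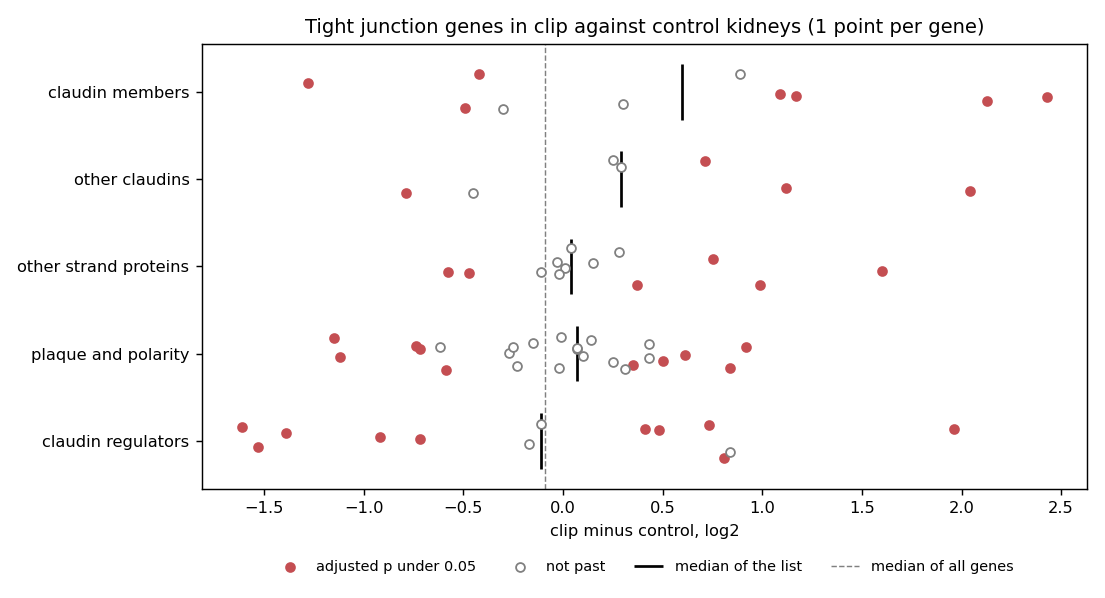
Difference of clip from control kidneys on the log2 scale for each gene of the claudins and of 3 further lists of junction genes, 1 point per gene, with the median of each list and, dashed, that of all genes (-0.0907); filled points have an adjusted p under 0.05. Members of every list lie on both sides of 0, and the claudins reach furthest to the right, with Cldn1 at 2.43 and Cldn4 at 2.13.

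Among 13 genes known to act on claudins 5 rose and 5 fell in clip kidneys (median -0.11), where 21.4% of all genes were called higher and 27.5% lower. Snai1, a repressor of epithelial genes that include claudins, rose 3.90-fold (1.96 ± 0.20; limma, BH-adjusted p = 8.67e-05), and Zeb2, of the same kind, rose 1.75-fold (0.81 ± 0.14, adjusted p = 0.00157). Casr, the calcium-sensing receptor, which in the thick limb switches on Cldn14, fell 3.04-fold (-1.61 ± 0.16, adjusted p = 7.44e-05). Wnk4, a kinase of distal salt transport, fell 2.89-fold (-1.53 ± 0.13, adjusted p = 3.57e-05). Snai1 alone was called in release against control (1.02 ± 0.20, adjusted p = 0.0479); this call was lost with normexp, where no gene was called higher, and with only the 2 arms in the fit, where none was called at all. In release against clip kidneys 23.5% of all genes were called higher and 17.4% lower. Of the 13 listed genes 5 were higher there, Casr (1.79 ± 0.16) and Wnk4 (1.69 ± 0.13) most, and 2 lower, Grhl1 (at least 1.63-fold, adjusted p = 0.0429) and Snai1 (-0.95 ± 0.20, adjusted p = 0.00554). The part of these genes in the claudin levels was not tested.

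Markers of the segments that hold these claudins moved strongly at the same time, which is given here beside the claudin values. Their part in the claudin results was not tested. In clip kidneys 27.5% of all genes were called lower and 21.4% higher. Proximal tubule markers fell in 12 of 12 cases, Slc7a13 most (median -1.53) and their summed level, in units of the 75th percentile, went from 774 to 924 in control to 224 to 358 in clip and 683 to 796 in release kidneys. Thick limb markers, Cldn16 among them, fell in 8 of 8, Egf most (median -2.17; 430 to 469, then 157 to 192 and 466 to 501). Distal convoluted and connecting tubule markers fell in 7 of 8, Pvalb most, by at least 17.8-fold (median -2.38; 180 to 234, then 27.3 to 33.6 and 132 to 220) and rose in 1, Trpv5. Principal cell markers of the collecting duct fell in 4 of 10, Aqp3 most, and rose in 1, Elf5 (median -0.42; 84.8 to 109, then 43.1 to 49.6 and 101 to 118), and intercalated cell markers fell in 9 of 10, Slc4a1 most (median -1.46; 79.4 to 98.7, then 22.4 to 30.5 and 80.2 to 94.6). In release against control, where 1.46% of all genes were called higher, Trpm6 of the distal list was (0.78 ± 0.15; limma, BH-adjusted p = 0.0452). That call was lost with normexp and with only the 2 arms in the fit. No other marker of these segments was called there in the main fit, and Elf5 was with slide as a block (adjusted p = 0.0484). Cldn2, at -0.49, stands beside the proximal median of -1.53, Cldn10, at -1.28, beside the proximal and the thick limb medians of -1.53 and -2.17, and Cldn3, at 1.17, beside the thick limb and principal cell medians of -2.17 and -0.42; these differences were not tested.

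Other cell types of the kidney were followed by the same kind of list. Over all genes 21.4% were called higher in clip kidneys and 27.5% lower, and 1.46% were called higher in release against control. Of 11 markers of simple and injured epithelium 9 rose (median 2.76; summed level 64.7 to 73.5 in control, 224 to 237 in clip and 72.4 to 76.5 in release kidneys), Havcr1 most, while Cdh1 (0.09, adjusted p = 0.459) and Epcam (0.28, adjusted p = 0.09), which epithelial cells make in general, did not pass. In release against control 3 of the 11 were called higher, Havcr1 (2.30 ± 0.36, adjusted p = 0.0333) most, and Epcam was one of them (0.69, adjusted p = 0.0412). Of 8 markers of urothelium, an epithelium rich in Cldn4, 2 rose in clip kidneys, the keratins Krt20 and Krt5 (2.45 ± 0.44; limma, BH-adjusted p = 0.00193), and the summed level went from 1.09 to 2.19 to 8.09 to 8.38, then 2.42 to 3.05 in release kidneys, where Krt20 was still called higher than in control (1.51 ± 0.29, adjusted p = 0.0467). The 5 uroplakin genes, which define that epithelium, did not pass (-0.31 to 0.39, adjusted p 0.27 to 0.956), nor did Psca. For Bowman's capsule, the home of Cldn1, Ncam1 rose (1.99 ± 0.18, adjusted p = 4.97e-05) and the 4 other markers did not pass (summed level 5.34 to 9.03, then 10.5 to 11.6 and 5.62 to 7.08). Thin limb markers gave 1 rise (Bst1) and 1 fall of 7 (39.5 to 62.6, then 43.3 to 52 and 70.1 to 74.8), podocyte markers 4 falls of 7 (6.39 to 8.43, then 5.4 to 6.04 and 6.16 to 6.47), endothelial markers, Cldn5 among them, 1 rise (Cdh5) and 1 fall (Kdr) of 9 (63.7 to 70.3, then 58.6 to 71.9 and 71.4 to 77), and macrophage markers 7 rises of 8 (7.41 to 9.43, then 27.7 to 32.1 and 12.1 to 14.8), of which 3 were still called higher in release kidneys than in control. Of the 8 macrophage markers 1 was well above background in a single arm only, and it is included among the 8 and in their summed level. The calls in release against control named here were lost with normexp, where no gene was called higher. They were also lost with only the 2 arms in the fit, where none was called at all. The part of these cells in the claudin results was not tested.

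For each called claudin the gene with the closest course over the 9 arrays was looked up among 13016 other genes with a symbol, by the root mean square difference of levels centred on their mean. For Cldn1 it was Bcl2a1c (0.0852), for Cldn3 Pfkfb1 (0.0597), for Cldn4 E2f1 (0.259) and for Cldn7 Fat1 (0.0618). Bcl2a1c lay below the lowest level well above background in every control kidney and in release 1 and release 2. Its likeness to Cldn1 thus rests in part on values that are not measured levels. For Cldn2 it was Adipor2 (0.046), for Cldn12 Bloc1s4 (0.0335) and for Cldn10 the transporter gene Slc6a13 (0.145). Cldn1 itself varied by 1.04 on this measure and Cldn12 by 0.185, so a small difference means less for Cldn12. The list describes likeness over these arrays only.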

How the data were processed

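The deposited scanner files give an intensity per spot, read with Feature Extraction 10.7.3.1 on array design 014868, per the file headers. The processed intensity used here tracked the files' background-subtracted column (Pearson's r over spots 0.9932 to 0.9985 per array) without being equal to it; the further steps are not given in the sources used here. Other deposited columns hold flags of 0 or 1. A deposited table of log2 values, whose making is not given in the sources used here, was only checked: the median correlation of its 8080 checked rows with the probe each row names was 0.0189, so it was not used. Each signal was scaled to its array's 75th percentile over the 43379 spots that are not controls and taken to log2. Spots of a probe were averaged without outlier flags. A probe was kept when well above background on at least 3 of 9 arrays, and the brightest kept probe stood for its gene (17742 genes). One linear model with 3 arms was fitted over all arrays (limma 3.58.1, R 4.3.3; BH over all genes). "At least" folds set the bright arm against, per array, the higher of the dim signal and the lowest signal well above background. The fit was tested on simulated data with independent noise and few changed genes. That setting has no slide effects and far fewer changed genes than were called here, so it does not measure the error of these calls.

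All members, each probe, the 2 largest called rises and falls of each junction list, other claudins that passed the filter and, for marker lists, counts were to be named; Ocln, Tjp1, Cldn6, Cdh1, Epcam, Psca and the uroplakins were named after their values were seen. Some genes the rule would name are not reported here. Members and lists were chosen with earlier results of these data known. Normexp used the median spot signal, since the files hold no mean signal. Alternatives changed the background correction, scaling, filter, probe choice, block, control arm and arrays left out. Where arrays shared a slide, their deviations from the arm means correlated (0.161 to 0.282 over 9 pairs), so differences within slides are given.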

Additional observations from a re-analysis of the deposited data

How the results depend on the processing

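In clip against control and in every alternative run, the 7 called claudins kept their direction and their side of the threshold; 7 to 9 members were called. Over all genes 5626 were called with normexp in place of 8676, and that setting moved the median of all genes from -0.09 to 0.10. In release against control 0 claudins were called throughout, while the count over all genes was 325, and 1 with normexp, 117 with quantile normalization, 12 without a filter on dim probes, 1163 with slide as a block, 202 with the replicate block, 0 with only the 2 arms compared in the fit (3384 at an unadjusted p under 0.05; limma), and 2 to 343 on leaving out 1 array (343 without the untreated array, 2 to 212 without any other). In release against clip the 7 called claudins kept their calls too; over all genes 7270 were called (4178 higher, 3092 lower), 4144 with normexp and 13597 without a filter (10515 higher, 3082 lower), where the median of all genes moved from 0.08 to -0.10 and 0.35. The numbers in the titles pair the arrays only in part (correlations of deviations from -0.209 to 0.269 between arrays of the same number); among the members the replicate block added the call of Cldn19 in clip kidneys and changed no other call.

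No difference that changed sign was past the threshold in either setting. For Cldn4 in release against control, 0.03 became -0.01 with normexp, -0.06 with quantile normalization and -0.12 with the sham arrays alone as control, and ran from -0.29 to 0.40 on leaving out 1 array. For Cldn2 it became 0 with quantile normalization, from -0.11. For release against clip, Cldn11 became -0.32 with normexp and ran from -0.47 to 1.24 on leaving out 1 array. There Cldn19 became -0.02 with quantile normalization, -0.18 with the mean of its probes and -0.37 with its other probe, and ran from -0.15 to 0.18 on leaving out 1 array. The cause was not tested. Cldn11, near background, limits what its single probe can show.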
